A study of Rattus norvegicus with 12 samples.

Results

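The transcripts Atp2a2, Ryr2 and Gja1 were followed in RNA precipitated with an antibody against Cpeb4 and in total RNA of rat heart muscle cells. They are 3 of the 32883 genes in the deposited count table, where they stand as ENSRNOG00000001285, ENSRNOG00000017060 and ENSRNOG00000000805. The table lists identifiers only, so the 3 names come from the choice of the genes and not from the table. All 3 were among the 10491 genes with enough counts to be tested.

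The cells were ventricular cardiomyocytes of neonatal Wistar rats, labelled as 2 days old and described in the growth protocol as taken from hearts of 1 to 2 days. They were enriched on a density gradient and left as a bulk culture, so that fewer cells of a type and less RNA per cell cannot be told apart. The 12 libraries form 4 groups of 3. Mock input and mock IP (immunoprecipitate) came from mock-treated cells, and PE input and PE IP from cells given phenylephrine (PE) for 24 h, which stimulates alpha-adrenergic receptors and makes cardiomyocytes grow in size. Input libraries held total RNA without an antibody step, and IP libraries held RNA eluted after overnight precipitation of Cpeb4. A control precipitate lacking that antibody was not analysed here. The labels do not tell whether replicates are separate cultures or animals, and p-values then reflect only how these samples vary, which can be technical.

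Each heartbeat depends on a cycle of calcium in the myocyte. Ryr2, the ryanodine receptor of heart muscle, is the channel that releases calcium from the sarcoplasmic reticulum to start contraction. Atp2a2 encodes the pump SERCA2, which returns calcium to that store so that the cell relaxes, and its reduced activity is a known feature of failing heart. Gja1 encodes connexin 43, the main gap junction protein of the ventricle, through which current passes from one myocyte to the next. Cpeb4 binds cytoplasmic polyadenylation elements near the 3′ ends of messenger RNAs, and its protein family is known for the control of poly(A) tails and translation.

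Library totals ranged from 1423334 to 30216559 counts. Counts came from a kit that reads the 3′ end of transcripts and were given per gene, so that a value pools all isoforms, including the 2a and 2b forms of SERCA2, whose transcripts end differently. Levels are given as CPM, the count of a gene scaled to the size of its library, after TMM scaling, a method that sets most genes level between libraries. A level without that scaling is named as CPM of the library total. Some libraries lacked many expressed genes. With the input and IP libraries of mock replicate 2 and of PE replicate 1 set aside, 2024 genes had a mean of 20 to 50 CPM over the 8 libraries left, and of these, 7.02% had 0 counts in mock IP replicate 2, 2.96% in mock input replicate 2 and 2.67% in PE input replicate 1, against at most 0.296% in the remaining 9. Choosing genes by their level in those 8 libraries itself keeps zeros rare there. PE IP replicate 1, also set aside, had 0.296%. Markers of cell types and other genes of calcium handling were not analysed here, since 0 identifiers could be paired with a symbol. The labelled cell type was therefore not checked against its markers.

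**Figure D1:**
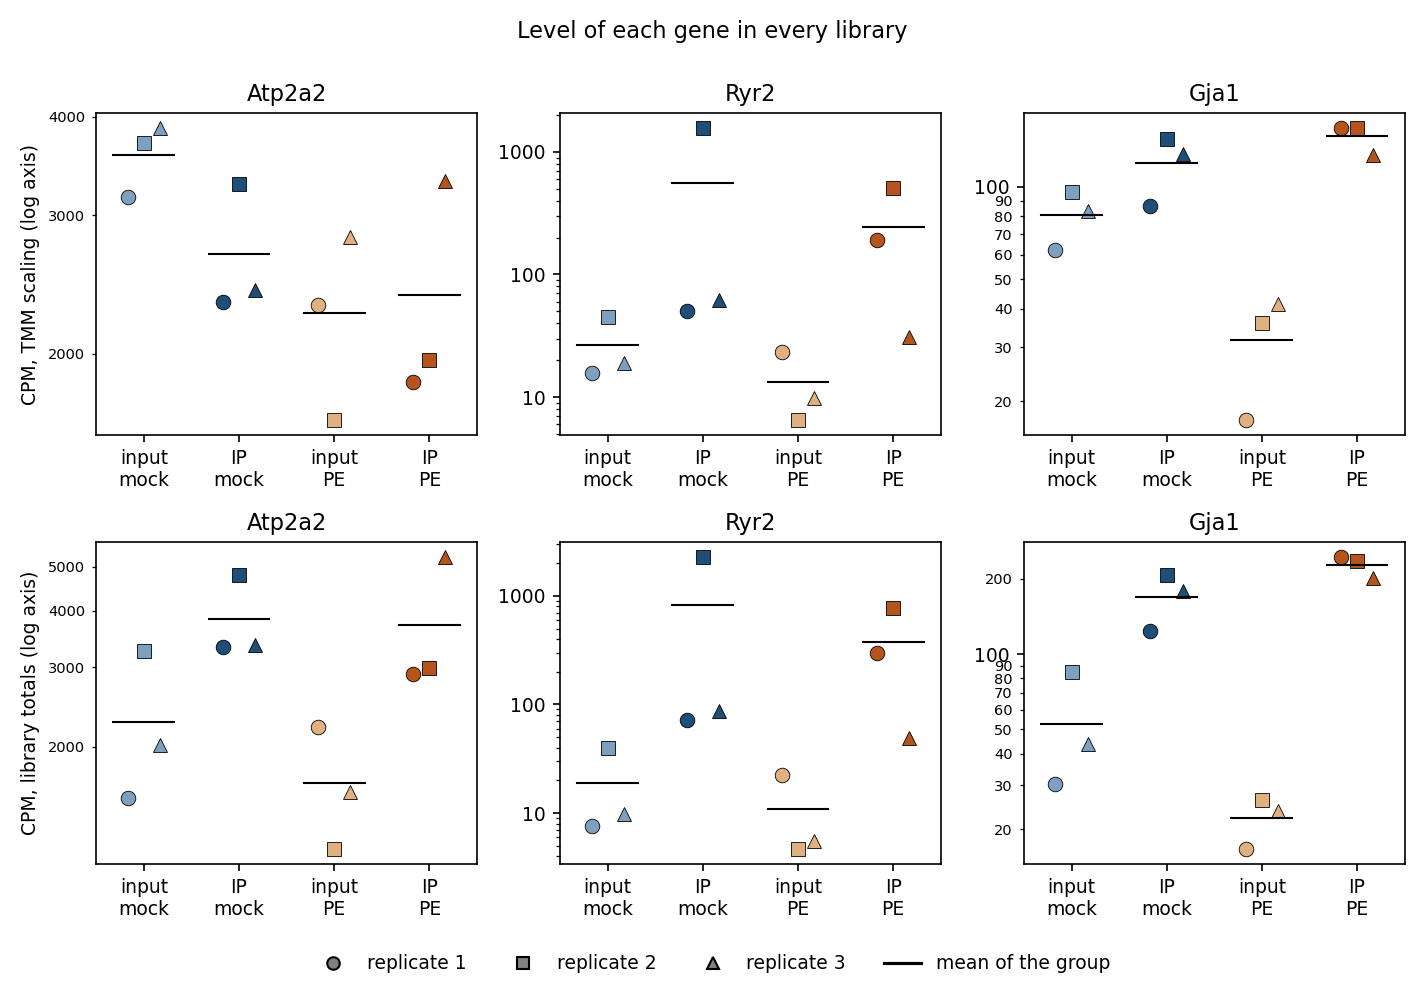
Level of Atp2a2, Ryr2 and Gja1 in each of the 12 libraries, in CPM on a log axis, with TMM scaling in the upper row and library totals in the lower row. Points are libraries, shaped by replicate number, and lines are group means (n = 3). Gja1 was lowest in the PE inputs (17.4 to 41.5 CPM with TMM) and highest in the PE precipitates (127 to 155 CPM), while Ryr2 spread from 30.9 to 1572 CPM over the 6 precipitates.

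The first comparison asks whether the 3 transcripts were more abundant in the Cpeb4 precipitate than in total RNA. With TMM scaling, Gja1 was higher in the precipitate of PE cells, 4.59-fold, and averaged over both treatments, 2.60-fold. Ryr2 was 19.5-fold higher averaged over both treatments, with a spread between precipitates far wider than for Gja1 and Atp2a2. For Atp2a2 no difference from input was detected once libraries were scaled to the typical gene.

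Atp2a2, the calcium pump, was among the most abundant transcripts, with a mean level above that of 99.6% of the genes tested. Its level in mock input was 3163, 3705 and 3870 CPM in replicates 1, 2 and 3. In mock IP it was 2325, 3285 and 2412 CPM. The mock precipitates lay lower on average, and replicate 2 overlapped the inputs. Between libraries of the same number the precipitate was lower in 3 of 3 pairs (paired log2 fold change -0.43, edgeR adjusted p = 0.459). In PE input the level was 2309, 1647 and 2810 CPM, and in PE IP it was 1840, 1967 and 3314 CPM. These groups overlapped, with the highest and the second highest of the 6 values in PE IP replicate 3 and PE input replicate 3. The log2 fold change of IP against input was -0.42 (SE 0.29, 95% interval -1.04 to 0.19) in mock cells and 0.07 (SE 0.29, -0.54 to 0.69) in PE cells, and -0.17 (SE 0.21, -0.61 to 0.26) on average. The edgeR adjusted p was 0.686, 0.992 and 0.776.

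The direction for Atp2a2 rested on the scaling in mock cells and on average, and in PE cells the size of its difference did. Per library total it took 1544 to 3257 CPM of the 3 mock inputs and 3326 to 4788 CPM of the 3 mock precipitates, which do not overlap. In PE cells it took 1189 to 2212 CPM of input and 2905 to 5265 CPM of IP, again without overlap. On this scale the precipitates lay above the inputs without overlap for all 3 genes in both treatments, as they did for 33% of all genes tested in mock and 37.3% in PE cells. Fitted on library totals alone, its log2 fold change was 0.75 in mock cells (edgeR adjusted p = 0.202), 1.16 in PE cells (0.0752) and 0.96 on average (0.0144). The median of all genes tested lay at 1.32, 1.27 and 1.31 on that scale, above Atp2a2 in each case. Gene by gene, the log2 fold change with library totals exceeded that with TMM by a median of 1.21, 1.10 and 1.15. Of the genes past the threshold, 21.8%, 21.7% and 38.4% were higher in IP with TMM, against 98.8%, 96.4% and 97.7% with library totals. The share of a library taken by Atp2a2 was thus larger in the precipitates, by less than the median gene.

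Ryr2, the release channel, had few counts in input and many in some precipitates. Mock input held 65, 198 and 14 counts in replicates 1, 2 and 3, which gave 15.7, 45.2 and 18.8 CPM. Mock IP held 362, 40866 and 1344 counts, or 50.3, 1572 and 62.4 CPM. Each mock precipitate lay above all 3 mock inputs, and replicate 2 stood far above the other precipitates of its group. PE input held 116, 24 and 164 counts (23.4, 6.47 and 9.79 CPM), and PE IP held 9043, 1715 and 248 counts (190, 507 and 30.9 CPM). Here too each precipitate lay above all 3 inputs of its treatment.

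The log2 fold change of Ryr2 was 4.38 (SE 1.49, 95% interval 1.05 to 7.70) in mock cells and 4.19 (SE 1.47, 0.91 to 7.48) in PE cells. Neither passed (edgeR adjusted p = 0.299 and 0.253), whereas the DESeq2 Wald test passed both (adjusted p = 0.0281 and 0.0154). Averaged over both treatments it was 4.28 (SE 1.05, 1.95 to 6.62), which passed (edgeR adjusted p = 0.0418). This call was lost without any of the 6 inputs, with edgeR adjusted p of 0.168, 0.0810 and 0.142 without mock replicates 1, 2 and 3 and 0.0700, 0.145 and 0.172 without PE replicates 1, 2 and 3. It was also lost without PE IP replicate 1 or 2 (edgeR adjusted p = 0.0963 and 0.116). Without mock IP replicate 2 the averaged log2 fold change was 2.62 (edgeR adjusted p = 0.0325), that of mock cells was 1.06 (adjusted p = 0.861) and that of PE cells, 4.19, passed (adjusted p = 0.0313). With input and IP of the same number taken as pairs in both treatments, the mock log2 fold change was 2.86 (edgeR adjusted p = 0.243). In that fit the log2 fold change was 3.48 in PE cells (edgeR adjusted p = 0.114). On average it was 3.17, which passed (edgeR adjusted p = 0.0260). With library totals alone the average was 5.26 (edgeR adjusted p = 0.00857).

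The spread of Ryr2 between precipitates exceeded counting error. Its share of mock IP replicate 2 was 2291 CPM of the library total, with a 95% exact binomial interval of 2269 to 2313, against 72.0 CPM (64.7 to 79.8) in replicate 1 and 87.0 CPM (82.4 to 91.8) in replicate 3. These intervals cover counting error only, since reads without molecular identifiers are not independent molecules. The highest value was 31.3 times the lowest in mock IP and 16.4 times in PE IP, but 2.88 and 3.62 times in mock and PE input. For Gja1 the same ratio was 1.65 in mock IP and 1.22 in PE IP, and for Atp2a2 it was 1.41 and 1.80. The biological coefficient of variation that edgeR fitted was 1.00 for Ryr2, 0.34 for Atp2a2 and 0.39 for Gja1, where genes of like abundance had 0.44, 0.41 and 0.47. Against genes of like abundance Ryr2 was thus more variable, and the other 2 lay slightly below. Over all genes tested, whatever their level, 55.3% had a lower coefficient than Ryr2, 1.41% a lower one than Atp2a2 and 6.53% a lower one than Gja1. The highest of the Ryr2 values fell in mock IP replicate 2, the library that lacked the most expressed genes, and mock input replicate 2 and PE input replicate 1 were each the highest input of their group. PE IP replicate 2, with 507 CPM, lacked only 0.0988% of the genes at 20 to 50 CPM. Without PE replicate 1 and mock replicate 2 in both kinds of RNA, the log2 fold change of Ryr2 was 1.71 in mock cells (edgeR adjusted p = 0.540), 4.998 in PE cells (0.0388) and 3.35 on average (0.0283).

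Gja1, connexin 43, had close values in the precipitates. Mock input held 62.1, 96.2 and 83.4 CPM in replicates 1, 2 and 3, and mock IP 86.4, 142 and 128 CPM. The groups overlapped in mock IP replicate 1, which lay below mock input replicate 2. Between libraries of the same number the precipitate was higher in 3 of 3 pairs (paired log2 fold change 0.55, edgeR adjusted p = 0.587). PE input held 17.4, 36.1 and 41.5 CPM and PE IP 155, 155 and 127 CPM. All 3 PE precipitates lay far above the 3 PE inputs, with no overlap. Behind these levels stood 62 to 695 counts in an input and 524 to 7400 counts in a precipitate.

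In PE cells the log2 fold change of Gja1 was 2.20 (SE 0.39, 95% interval 1.37 to 3.03), which passed (edgeR adjusted p = 0.00772) and exceeded that of 92.3% of the genes tested. It was 0.56 (SE 0.38, -0.24 to 1.36) in mock cells and did not pass (edgeR adjusted p = 0.673). Averaged over both treatments it was 1.38 (SE 0.27, 0.81 to 1.95), which passed (edgeR adjusted p = 0.00539). Both calls held without each of the 12 libraries in turn, with log2 fold changes of 1.89 to 2.45 in PE cells and 1.21 to 1.51 on average. Without PE replicate 1 and mock replicate 2 in both kinds of RNA they were 1.82 and 1.18 (edgeR adjusted p = 0.00153 and 0.00174). With library totals alone the log2 fold changes were larger, 3.37 in PE cells and 2.52 on average (edgeR adjusted p = 0.00551 and 0.00015), where the median of all genes lay at 1.27 and 1.31. The mock log2 fold change was then 1.68 and passed (edgeR adjusted p = 0.0317), beside a median of 1.32.

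Of the 3 genes, edgeR passed 0 in mock cells, where 0.162% of all genes tested passed as higher in IP and 0.743% in either direction (78 genes, or 272 with input and IP of the same number taken as pairs). At an unadjusted p under 0.05 there was 1, Ryr2, beside 10.8% of all genes, and the DESeq2 Wald test also passed Ryr2 alone. In PE cells 1 of 3 passed as higher, beside 0.458% of all genes. Averaged over both treatments 2 of 3 passed as higher, beside 2.26%. None of the 3 passed as lower with TMM scaling, beside 0.581%, 1.65% and 3.62% of all genes. The median log2 fold change of the 3 genes was 0.56 in mock cells, 2.20 in PE cells and 1.38 on average, against 0.11, 0.18 and 0.16 over all genes. With TMM scaling, libraries without overlap and with IP higher were seen for 1 of 3 genes in mock cells (9.96% of all genes) and for 2 of 3 in PE cells (12.9%).

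**Figure D2:**
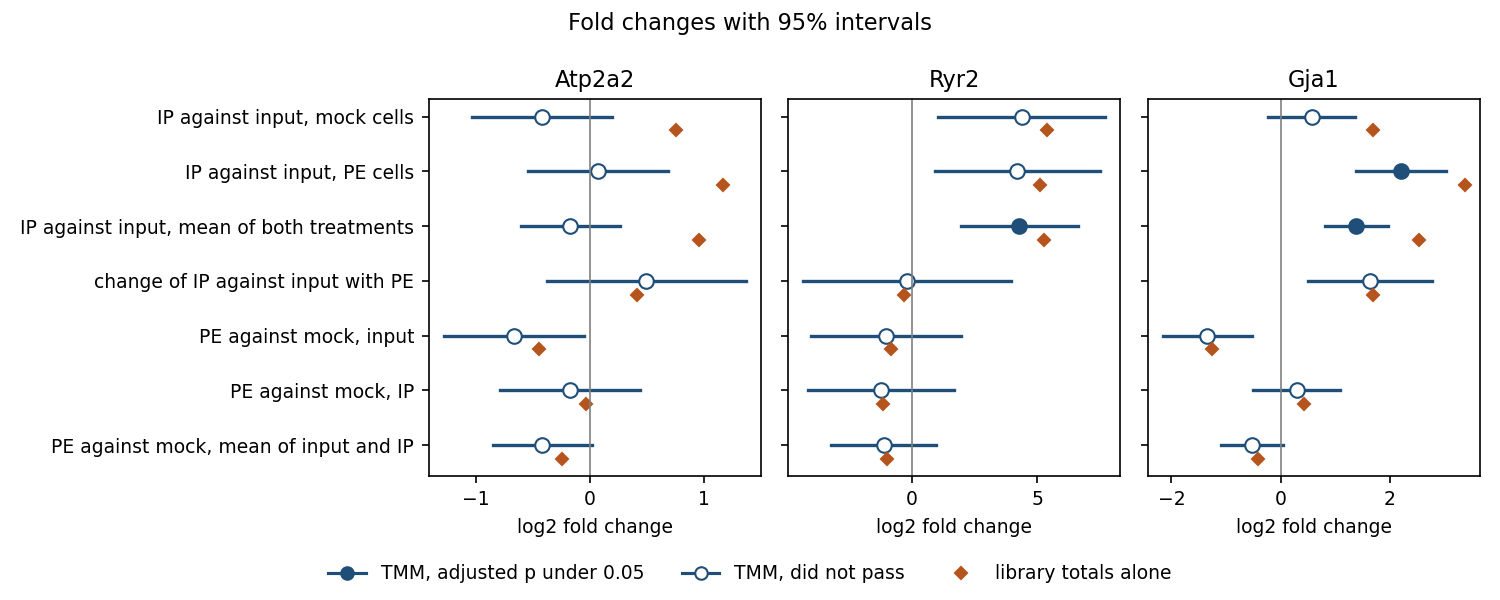
Log2 fold changes of the 3 genes in 7 comparisons, with 95% intervals from the edgeR fit with TMM scaling; filled circles passed at an adjusted p under 0.05, and diamonds are the same fit on library totals alone. Each panel has its own axis. Gja1 passed in PE cells (2.20) and on average (1.38), Ryr2 on average (4.28), and the Atp2a2 diamonds lie to the right of 0 for IP against input (0.75, 1.16 and 0.96), where the circles do not separate from 0.

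**Figure D3:**
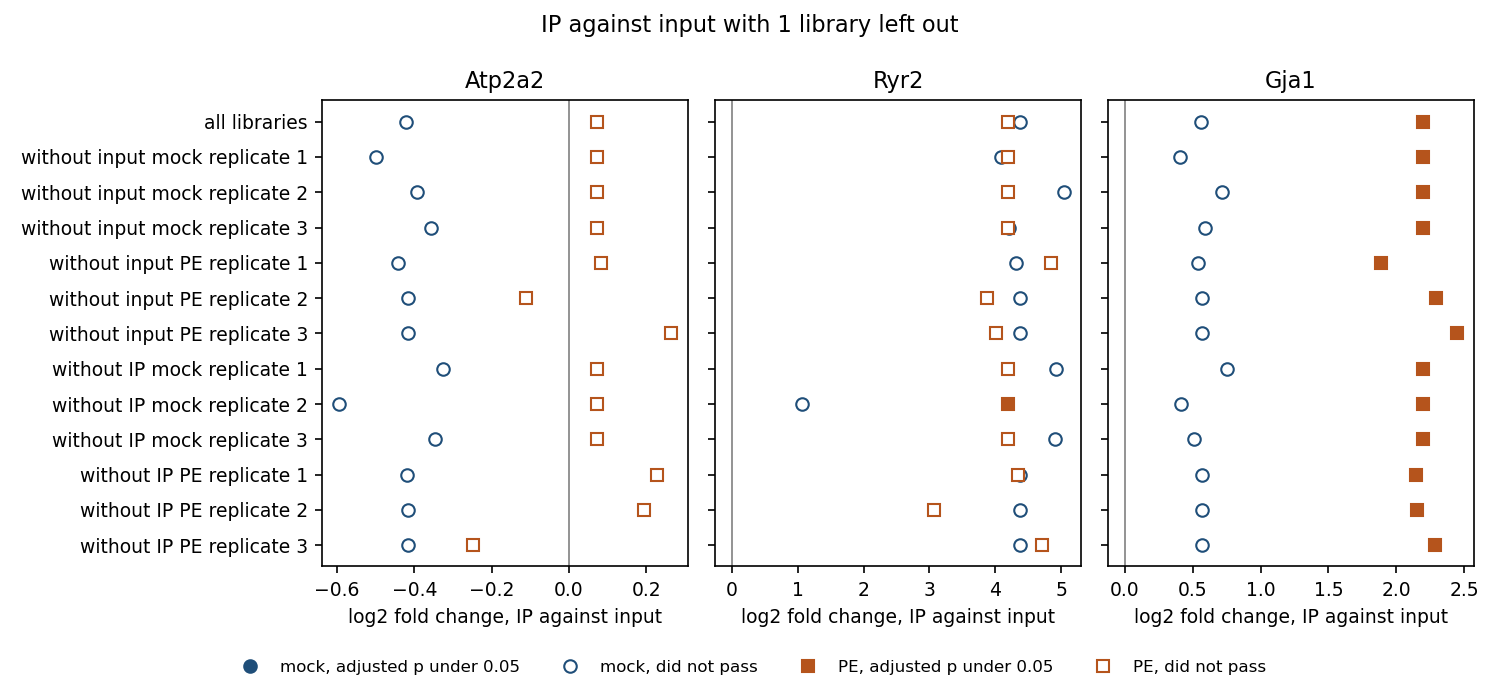
Log2 fold change of IP against input in mock (circles) and PE cells (squares) with all libraries and with each of the 12 left out, filled where the edgeR adjusted p was under 0.05. Each panel has its own axis. Gja1 in PE cells passed in every row, and Ryr2 in mock cells moved from 4.38 to 1.06 without mock IP replicate 2.

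Ratios of counts inside a library do not depend on the scaling of the libraries. They are ratios of 3′ end counts, and their absolute size says nothing of the relative number of molecules. The log2 ratio of Gja1 to Atp2a2 lay between -7.05 and -5.27 in the 6 inputs and between -4.75 and -3.57 in the 6 precipitates, without overlap. The mean difference within treatment was 1.61, a 3.04-fold higher ratio in IP (two-sided exact permutation p = 0.005, the smallest possible, and 0.03 after Benjamini-Hochberg adjustment over 6 tests). This average joined unlike treatments, with group means of -5.49 and -4.50 in mock input and IP and -6.21 and -3.98 in PE input and IP. Whether the rise of this ratio differed between treatments was not tested. The log2 ratio of Ryr2 to Atp2a2 lay between -8.16 and -6.35 in the inputs and between -6.74 and -1.06 in the precipitates. Its mean difference was 3.42, or 10.7-fold (exact permutation p = 0.01, adjusted 0.03). The ratio of Gja1 to Ryr2 differed by -1.81 on the log2 scale and did not pass (exact permutation p = 0.075, adjusted 0.15). Without mock IP replicate 2 this difference was -1.09. The adjusted p of Gja1 to Atp2a2 was 0.06 without PE input replicate 1. That of Ryr2 to Atp2a2 lay between 0.06 and 0.09 without any 1 of the 6 inputs or without mock IP replicate 2, and without the latter the difference was 2.698. For PE against mock, averaged over input and IP, the log2 ratios differed by -0.20 (Ryr2 to Atp2a2), -0.10 (Gja1 to Atp2a2) and 0.10 (Gja1 to Ryr2). None of these passed (exact permutation, adjusted p = 0.915 each). Both averages with Gja1 joined opposite shifts. Gja1 to Atp2a2 went from -5.49 to -6.21 in input and from -4.50 to -3.98 in IP. Gja1 to Ryr2 went from 1.72 to 1.37 in input and from -0.55 to 0.01 in IP. Shifts within input or within IP were not tested alone.

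**Figure D4:**
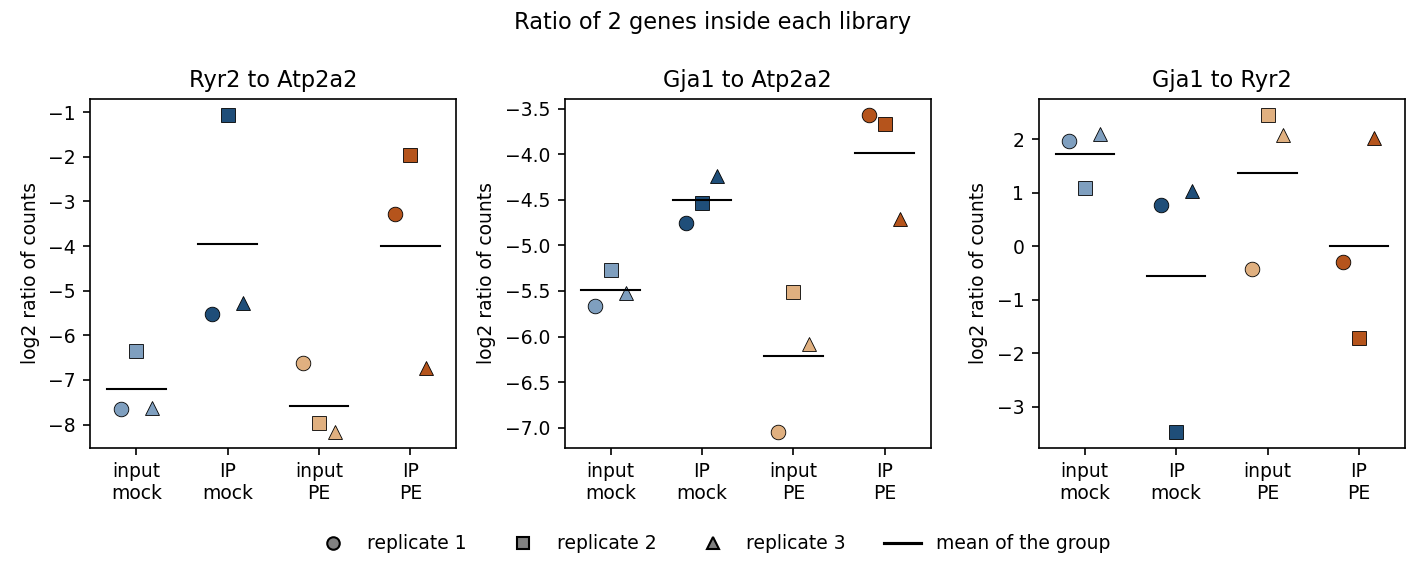
Log2 ratio of the counts of 2 genes inside each library, for the 4 groups, with points shaped by replicate number and lines at the group mean (n = 3). Each panel has its own axis. The 6 precipitates lie above the 6 inputs for Gja1 to Atp2a2 (-4.75 to -3.57 against -7.05 to -5.27), and the precipitates spread widely for both ratios with Ryr2.

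The second comparison asks what PE changed in each pool of RNA. No change of the 3 genes passed the test in input or in precipitate. In input all 3 had lower mean levels after PE, and for Gja1 and Atp2a2 the PE and mock libraries did not overlap with TMM scaling. On library totals the inputs of Gja1 still did not overlap, whereas those of Atp2a2 did. In the precipitates no such separation was seen.

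The mean level of Gja1 was 80.6 ± 17.2 CPM (SD, n = 3) in mock and 31.7 ± 12.7 CPM (n = 3) in PE input, and the highest PE input lay below the lowest mock input. Its log2 fold change was -1.34 (SE 0.39, 95% interval -2.16 to -0.53), with an unadjusted edgeR p of 0.00296 that did not survive adjustment over all genes (edgeR adjusted p = 0.932). It was negative in each of the 12 fits that left out 1 library, from -1.59 to -1.05. Atp2a2 had 3579 ± 370.1 CPM in mock and 2256 ± 583 CPM in PE input (log2 fold change -0.67, SE 0.29, -1.28 to -0.05, edgeR adjusted p = 1). With library totals its log2 fold change was -0.45 (edgeR adjusted p = 1). Ryr2 had 26.6 ± 16.2 and 13.2 ± 8.99 CPM (log2 fold change -1.03, SE 1.34, -4.02 to 1.96, edgeR adjusted p = 1). The Ryr2 value was -0.37 without mock input replicate 2 and -1.72 without PE input replicate 1. Of the 3 genes, edgeR passed 0, beside 0.00953% of all genes tested. At an unadjusted p under 0.05 there were 2, Gja1 and, though not with library totals, Atp2a2, beside 3.57% of all genes, and the DESeq2 Wald test passed 0. Libraries without overlap, with PE lower, were seen for 2 of 3 genes and for 4.18% of all genes. The median of the 3 genes was -1.03, against 0.06 over all genes.

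In the precipitates Gja1 had 119 ± 29.0 CPM (SD, n = 3) in mock and 146 ± 16.2 CPM (n = 3) in PE cells, a log2 fold change of 0.29 (SE 0.37, 95% interval -0.50 to 1.08, edgeR adjusted p = 1). Atp2a2 had 2674 ± 531 and 2374 ± 817 CPM (log2 fold change -0.17, SE 0.29, -0.79 to 0.44, edgeR adjusted p = 1). Ryr2 had 562 ± 875.0 and 242 ± 242 CPM (log2 fold change -1.21, SE 1.30, -4.12 to 1.69, edgeR adjusted p = 1). The sign for Ryr2 rested on mock IP replicate 2, without which the log2 fold change was 2.10. Here 0 of 3 passed by edgeR, beside 0.00953% of all genes tested, with 0 at an unadjusted p under 0.05 (5.54% of all genes) and 0 by the DESeq2 Wald test. The median of the 3 genes was -0.17, against 0.12 over all genes.

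Averaged over input and precipitate, the log2 fold change with PE was -0.42 (SE 0.21) for Atp2a2, -1.12 (SE 0.94) for Ryr2 and -0.53 (SE 0.27) for Gja1. The 95% intervals were -0.85 to 0.02, -3.21 to 0.96 and -1.09 to 0.04. Again 0 of 3 passed (edgeR adjusted p = 0.783, 0.968 and 0.800), beside 0.124% of all genes, with 0 at an unadjusted p under 0.05 (6.51% of all genes) and 0 by the DESeq2 Wald test. The Ryr2 value was 0.53 without mock IP replicate 2.

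By mean level with TMM scaling, Gja1 stood in the order PE IP, mock IP, mock input and PE input. The neighbours PE IP and mock IP overlapped, as did mock IP and mock input, whereas mock and PE input did not. The order for Ryr2 was mock IP, PE IP, mock input and PE input, with overlap between the precipitates and between the inputs, and between PE IP replicate 3 and mock input replicate 2. The first place of mock IP rested on its replicate 2, since the other 2 mock precipitates (50.3 and 62.4 CPM) lay below the PE IP mean of 242 CPM. The order for Atp2a2 was mock input, mock IP, PE IP and PE input, and each pair of neighbours overlapped.

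The third comparison asks whether PE altered the enrichment in the precipitate. The log2 difference between the IP effects of PE and mock cells was 1.64 for Gja1 (SE 0.54, 95% interval 0.50 to 2.77), 0.49 for Atp2a2 (SE 0.41, -0.37 to 1.36) and -0.18 for Ryr2 (SE 1.86, -4.32 to 3.95). None of the 3 passed, with edgeR adjusted p of 1.00 each, beside 0% of all genes tested. At an unadjusted p under 0.05 there was 1 of 3, Gja1, beside 2.58% of all genes, and the DESeq2 Wald test passed 0. The unadjusted edgeR p of Gja1 was 0.00749. Gja1 thus passed in PE cells and not in mock cells, but the difference between the treatments was not established after adjustment. On the level scale this difference joined a lower PE input (31.7 against 80.6 CPM) with a similar precipitate (146 against 119 CPM). For Ryr2 the interval spans changes of enrichment from 0.0501-fold to 15.5-fold, and the value was 3.13 without mock IP replicate 2.

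Across the 12 libraries, log2(CPM + 1) of Ryr2 and Gja1 had a Pearson r of 0.68, that of Atp2a2 and Gja1 0.15 and that of Atp2a2 and Ryr2 -0.04. These values describe libraries that also differ in kind of RNA, depth and the loss of genes. Among 5864 other genes whose mean reached 10 CPM, the closest to Gja1 over the 12 libraries were ENSRNOG00000022502 (Pearson r 0.98) and ENSRNOG00000009639 (0.94), which the files do not pair with names. Their median levels were 11.3 and 6.75 CPM in the 6 inputs and 30.7 and 41.3 CPM in the 6 precipitates. The closest to Ryr2 were ENSRNOG00000005804 (Pearson r 0.97) and ENSRNOG00000012512 (0.95), with median levels of 109 and 56.9 CPM in input and 194 and 215 CPM in IP. The closest to Atp2a2 were ENSRNOG00000019708 (0.83) and ENSRNOG00000056487 (0.82), with 18.5 and 43.3 CPM in input and 14.6 and 36.4 CPM in IP. These genes were picked for their likeness over the same libraries, so their levels are a description and were not tested.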

How the data were processed

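The authors deposited 1 table of raw counts per Ensembl rat gene for the 12 libraries, made with a 3′ end sequencing kit from 200 ng of RNA and 15 cycles, per the labels' protocols. Per the submitters' processing notes, the build was Rnor_6.0 and the tools included STAR 2.7, featureCounts 1.6.4, cutadapt 2.5 and DESeq2, with no options stated. The 32883 blank lines were skipped. The reference table paired 0 identifiers with symbols, so 9 lists of 108 genes (calcium handling, intercalated disc, cell type markers) were not run.

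Counts were fitted with edgeR 4.0.16 (R 4.3.3; TMM, filterByExpr, robust quasi-likelihood F-test, 1 fit of 4 group means), which kept 10491 genes with 99.6% or more of the counts of every library. The edgeR p-values were adjusted over all genes tested by the Benjamini-Hochberg method with a threshold of 0.05. SE is the log2 fold change divided by the square root of F. Averaged contrasts weigh both treatments, or both kinds of RNA, equally. Ratios took counts plus 0.5, with labels permuted within treatment or kind of RNA. The edgeR steps were also run on simulated counts, with fold changes planted in IP alike in both treatments. Those counts held no PE effect, no pairs and no library lacking genes, so they do not test these features. DESeq2 1.42.0 was an alternative. For IP against input it gave no adjusted p for 307 genes in mock and 4698 in PE cells. Its adjustment thus covered fewer genes than that of edgeR.

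The genes, lists, tests and alternatives, among them leaving out mock replicate 2 and PE replicate 1, were chosen with earlier results of these data known. Named genes were the 3 chosen ones and the 2 identifiers most correlated with each. Replicates of a group differed beyond sampling noise (chi-square per degree of freedom at least 7.79). Deviations from the group mean of same-numbered input and IP libraries correlated at 0.27, 0.32 and 0.20 over genes in mock cells. There, 5 of 6 libraries were closest to the library of their own number. Input and IP of the same number were therefore also fitted as pairs. That fit paired the PE libraries too, although their numbers were not shown to pair.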

Additional observations from a re-analysis of the deposited data

How the results depend on the processing

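Ryr2 had 14 to 198 counts in an input, which limits the precision of its input levels. For IP against input, library totals alone gave Atp2a2 0.75 in mock cells and 0.96 on average, where TMM gave -0.42 and -0.17, and Gja1 1.68 in mock cells, which then passed. Ryr2 passed in mock and PE cells with the DESeq2 Wald test (4.36 and 4.23) and without a low-count filter (4.41 and 4.20). The fit without that filter also passed its PE effect averaged over input and IP (-1.13). There the SE of Ryr2 fell from 1.49, 1.47 and 0.94 to 0.48, 0.47 and 0.30 on the same Ryr2 counts. These passes without a filter thus came with a smaller SE at nearly the same effect. Which part of that fit gave the passes was not tested. With the filter, the averaged PE effect was 0.53 without mock IP replicate 2. With mock replicate 2 and PE replicate 1 left out of input and IP, Ryr2 passed in PE cells (4.998), its change of IP with PE was 3.29 and its PE effects were 2.27 in IP and 0.62 averaged, Atp2a2 in IP was 0.14, and log2 ratios were 2.97 (Ryr2 to Atp2a2) and 1.36 (Gja1 to Atp2a2) for IP, which could no longer pass as their exact permutation p was 0.0556, the smallest value 2 against 2 in each treatment allows, and 0.31, 0.055 and -0.26 (Gja1 to Ryr2) for PE.

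A replicate block shared by all 4 groups gave Ryr2 3.26 on average (edgeR adjusted p = 0.0518), with -0.40 for PE in input, and a block within treatment gave its change of IP with PE as 0.62. Exact sign-flip permutation tests of same-numbered libraries gave 3.42 and 1.61 for the ratios with Atp2a2 at p = 0.03125, the smallest possible (0.09375 adjusted). The numbers were not shown to pair PE input with PE IP (correlations 0.32, 0.02 and 0.34, 3 of 6 libraries closest to their own number), mock with PE input (-0.38, -0.35 and 0.25, 0 of 6) or mock with PE IP (-0.23, 0.06 and 0.26, 2 of 6). The blocks changed no other call of the 3 genes.

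Leaving out each library gave Ryr2 2.62 to 4.62 on average, 3.06 to 4.84 in PE cells, -1.32 to 3.13 for the change with PE, -2.35 to 2.10 for PE in IP, -1.72 to -0.37 for PE in input and -1.69 to 0.53 for PE averaged. Atp2a2 ranged from -0.25 to 0.26 for IP in PE cells and from -0.49 to 0.0047 for PE in IP. IP ratios ranged from 2.698 to 4.11 (Ryr2 to Atp2a2), 1.40 to 1.79 (Gja1 to Atp2a2) and -2.32 to -1.09 (Gja1 to Ryr2), and PE ratios from -0.71 to 0.52, -0.28 to 0.11 and -0.62 to 0.55 (Gja1 to Ryr2).

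Genes past the threshold numbered 78 in mock, 221 in PE and 617 on average for IP against input. Library totals gave 852, 665 and 2888, no filter 347 and 423, DESeq2 380, 597 and 1092, the 6 libraries compared 1 and 95, the block within treatment 272 and 421, and leaving out the 4 libraries 517, 975 and 1536. Single libraries left out gave 3 to 96, 66 to 328 and 381 to 688. The change of IP with PE had 0, with 1 without a filter and 2 by DESeq2. PE against mock had 1 in input, 1 in IP and 13 averaged. No filter gave 15, 30 and 72, DESeq2 15, 41 and 99, the 6 libraries 0 and 0, and leaving out the 4 libraries 8, 39 and 96. Single libraries left out gave 0 to 4 in input and 5 to 20 averaged. What caused these differences was not tested.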
